A study of Oryzias latipes with 10 samples.

Results

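The genes described here are 4 genes grouped under epithelial junctions and the outer epithelium of the medaka (*Oryzias latipes*) embryo: *cldn1*, *DSG2*, *evplb* and *agr1*. Of these, *agr1* is not a junction gene, and its place in the embryo was not measured here. The 4 genes are the rows of the count table whose Ensembl identifiers the tables of the study pair with these symbols, 4 of 24365 genes counted. They were picked by name, but with earlier results of these data known. Symbols in those tables are mostly of genes that the study called on these same libraries. RNA-seq was made of whole embryos at stage 16, the late gastrula, to ask which genes depend on the paralogous transcriptional co-activators Yap1 and Yap1b. The 10 libraries were 3 of yap-/- embryos (*yap* single mutants), 3 of yap-/- yap1b-/- embryos (*yap* double mutants) and 4 of wild type embryos (WT 1 to 4). Each library held RNA of synchronized embryos of several crosses that were genotyped one by one and then pooled by genotype. Which crosses went into which library is not stated, so p-values measure the spread between these pools. WT 4 is given apart from WT 1-3 throughout. It grouped with the double mutants in a set that was inferred from expression values, not from a label. The set is called technical here, but no label says what it stands for. The model of genotype and set therefore compared single mutants with WT 1-3 and double mutants with WT 4 alone. As a single library, WT 4 adds no estimate of spread there. P-values that involve WT 4 in that model rest on spread within the other groups, not between WT pools of its set. Values given without WT 4 come from a model of genotype alone. It sets the double mutants against WT 1-3, so that genotype and set cannot be told apart in it.

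During teleost gastrulation the embryo is covered by the enveloping layer, a flat simple epithelium that spreads over the yolk and later forms the periderm. Its cells are sealed to each other by tight junctions, whose strands are built of claudins, and are held together by desmosomes, in which desmogleins and desmocollins bridge neighbouring cells and plakins tie the plaque to keratin filaments. Envoplakin and periplakin are plakins that in mammalian epidermis are also cross-linked by transglutaminase 1 into the cornified envelope. Anterior gradient proteins belong to another class: they are protein disulfide isomerase relatives of the secretory pathway, known in *Xenopus* from the cement gland. Of the genes described here, *cldn1* thus codes for a tight junction strand protein, *DSG2* for a desmosomal cadherin, *evplb* for an envoplakin and *agr1* for a secretory pathway protein.

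All 4 genes were read deeply. Gene counts summed to between 22053738 (single mutant 1) and 38383959 (WT 1) per library, and the lowest count of a gene described here was 472, for *cldn1* in single mutant 1. Normalized counts below are counts scaled by TMM factors to a common library size. Relative to the WT library of its technical set, *cldn1*, *DSG2* and *evplb* were lower and *agr1* was higher in the double mutants. Only *cldn1* and *agr1* kept the mutants of both genotypes apart from all 4 WT libraries. The lower level of *DSG2* rested on WT 4, without which its log2 fold change was 0.01.

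**Figure D1:**
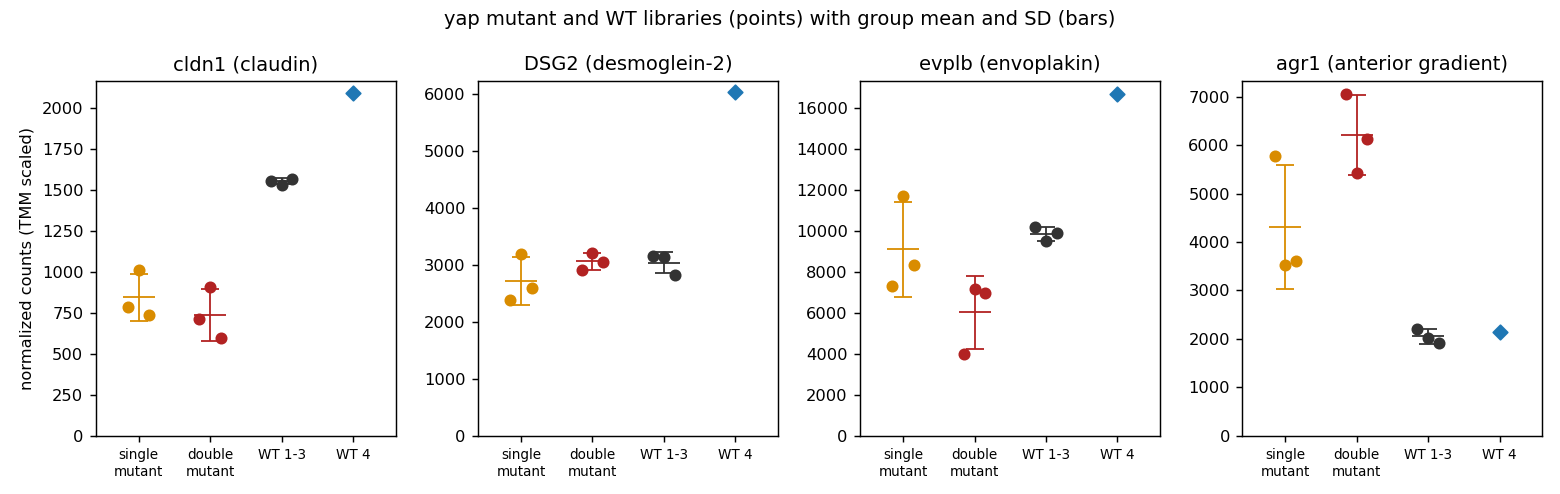
Normalized counts (y axis, linear, from 0) of *cldn1*, *DSG2*, *evplb* and *agr1* in *yap* single mutants, *yap* double mutants, WT 1-3 and WT 4 (x axis). Points are libraries and bars are means with SD (n = 3; WT 4 is a single library). *cldn1* lay at 596 to 1009 in the 6 mutant libraries, below every WT library. *agr1* lay at 3531 to 7066 in the mutants, above every WT library. WT 4 stands above WT 1-3 for *cldn1*, *DSG2* and *evplb*.

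The transcripts of the mutated genes were read first as a check of the labels. *yap1* had 2657, 2993 and 2656 normalized counts in the single mutants and 2707, 3148 and 3356 in the double mutants, against 9358, 9131 and 9028 in WT 1-3 and 5470 in WT 4. *yap1b* had 846, 887 and 955 normalized counts in the double mutants and 1856, 2296 and 2349 in the single mutants, against 2416, 2270 and 2434 in WT 1-3 and 2704 in WT 4. *yap1* was thus low in both mutants and *yap1b* in the double mutants alone, as the labels say. *yap1* itself differed between WT 4 and the other WT libraries.

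*cldn1*, annotated as claudin-7 in RefSeq (ENSORLG00000004570; ASM223467v1, chromosome 17, 5566087 to 5569365), was the most evenly lowered of the 4 genes. The single mutants had 784, 1009 and 735 normalized counts and the double mutants 709, 908 and 596, against 1556, 1531 and 1566 in WT 1-3 and 2088 in WT 4. Mutant and WT libraries did not overlap. In the double mutants the log2 fold change was -1.50 ± 0.22 (SE; edgeR quasi-likelihood test, adjusted p = 0.0092), a mean of 0.353 times the level of WT 4 and of 0.476 times that of WT 1-3. The call held without each library other than WT 4 (edgeR adjusted p 0.0068 to 0.027). It was also made without WT 4 (-1.07 ± 0.17, edgeR adjusted p = 0.0018), in the model that called 21.3% of all genes lower. In the single mutants the log2 fold change was -0.88 ± 0.17 and just missed the threshold (edgeR adjusted p = 0.062). There it was called with genotype alone in the model (-0.998 ± 0.19, edgeR adjusted p = 0.049), with DESeq2 (adjusted p = 0.00031) and without double mutant 3 (adjusted p = 0.040).

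*DSG2* (ENSORLG00000017110; chromosome 17, 26137671 to 26145394), a desmosomal cadherin, had 2915, 3210 and 3047 normalized counts in the double mutants and 2380, 3193 and 2592 in the single mutants, against 3146, 3142 and 2828 in WT 1-3 and 6037 in WT 4. WT 4 alone stood apart, at 1.99 times the mean of WT 1-3. A ratio at least as high was found for 6.37% of the 16513 genes tested. The same ratio was 1.69 for *evplb*, 1.35 for *cldn1* and 1.04 for *agr1*, values that 10.7%, 24.2% and 49.6% of all genes reached. Against WT 4 the double mutants were lower (log2 fold change -0.98 ± 0.17, edgeR adjusted p = 0.016), but their mean was 1.01 times that of WT 1-3. The call was lost with genotype alone in the model (-0.31 ± 0.24, edgeR adjusted p = 0.35), and without WT 4 the difference was 0.01 ± 0.12 (adjusted p = 0.96). It was also lost without double mutant 2 (adjusted p = 0.052). The single mutant log2 fold change was -0.16 ± 0.12 (edgeR adjusted p = 0.67), with a 95% interval of -0.44 to 0.12.

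*evplb* (ENSORLG00000015065; chromosome 8, 20580651 to 20591397), one of a pair of envoplakin genes, had 3973, 7156 and 6971 normalized counts in the double mutants and 7293, 11714 and 8311 in the single mutants, against 10176, 9491 and 9884 in WT 1-3 and 16680 in WT 4. All double mutants lay below all WT libraries, while the single mutants overlapped WT 1-3 because of single mutant 2. In the double mutants the log2 fold change was -1.47 ± 0.31 (edgeR adjusted p = 0.043), and it was smaller but still called without WT 4 (-0.71 ± 0.24, adjusted p = 0.036). The model without WT 4 called 21.3% of all genes lower. Leaving out any 1 of 6 libraries (double mutant 2 or 3, single mutant 3 and each of WT 1-3) took the adjusted p past 0.05, to at most 0.086. In the single mutants the log2 fold change was -0.11 ± 0.24 (edgeR adjusted p = 0.87; 95% interval -0.64 to 0.41).

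*agr1*, annotated as anterior gradient protein 3 in RefSeq (ENSORLG00000028686; chromosome 21, 26430057 to 26434030), went the other way. The double mutants had 7066, 5419 and 6134 normalized counts and the single mutants 5777, 3531 and 3599, against 2212, 2015 and 1921 in WT 1-3 and 2132 in WT 4. WT 4 lay within the range of WT 1-3 here, and every mutant library lay above every WT library. The log2 fold change was 1.54 ± 0.30 in the double mutants (edgeR adjusted p = 0.030) and 1.07 ± 0.20 in the single mutants (adjusted p = 0.047); the double mutant mean was 2.91 times WT 4. The double mutant call was also made without WT 4 (1.60 ± 0.20, edgeR adjusted p = 0.00068), where 22.3% of all genes were called higher. In the model with the set it was lost without any 1 of the double mutants or of WT 1-3 (adjusted p up to 0.063). The single mutant call was lost when single mutant 2 or 3, double mutant 2 or 3 or any of WT 1-3 was left out (adjusted p up to 0.23). The log2 fold change was 1.02 to 1.19 in those fits, and 0.78 without single mutant 1, where the call held.

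In counts, 3 of the 4 genes were called lower and 1 higher in the double mutants, where 2.02% of all genes tested were called lower and 0.285% higher. The genes were chosen with earlier results of these data known, so these counts do not measure an enrichment. Single mutants had 0 called lower and 1 higher, where 0.6% of all genes were called lower and 0.0908% higher. The count of 0 is that of edgeR: *cldn1* alone had an unadjusted p under 0.05 among the lower genes (0.00051), and it was called lower with genotype alone in the model, as were 0.521% of all genes, and by DESeq2, as were 1.91%. DESeq2 called all 4 genes in the double mutants in the same directions, where it called 3.29% of all genes lower and 1.13% higher. Double mutant libraries lay below all 4 WT libraries for 2 of the 4 genes and above them for 1, against 15.7% and 16.2% of all genes. Single mutant libraries lay below all WT for 1 gene and above for 1, against 6.03% and 3.47% of all genes. All 6 mutant libraries lay below all WT for *cldn1*, as for 3.75% of all genes, and above all WT for *agr1*, as for 1.71%. The values come from whole embryos, in which fewer cells of a type and less RNA per cell cannot be told apart.

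The effects of the 2 genotypes were not shown to differ for any of the 4 genes. The double minus single mutant difference was -0.62 ± 0.29 for *cldn1* (95% interval -1.27 to 0.03), -0.82 ± 0.21 for *DSG2* (-1.30 to -0.35), -1.35 ± 0.40 for *evplb* (-2.24 to -0.47) and 0.47 ± 0.34 for *agr1* (-0.29 to 1.23). The edgeR adjusted p was 1.0 for *cldn1*, 0.36 for *DSG2*, 0.52 for *evplb* and 1.0 for *agr1*. Over all genes 0.0242% were called lower and 0.00606% higher in this comparison. The unadjusted p was 0.0032 for *DSG2* and 0.0070 for *evplb*, the genes for which WT 4 was farthest above WT 1-3. Without WT 4 the difference was -0.19 ± 0.17 for *cldn1*, 0.17 ± 0.12 for *DSG2*, -0.59 ± 0.24 for *evplb* and 0.53 ± 0.19 for *agr1*.

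**Figure D2:**
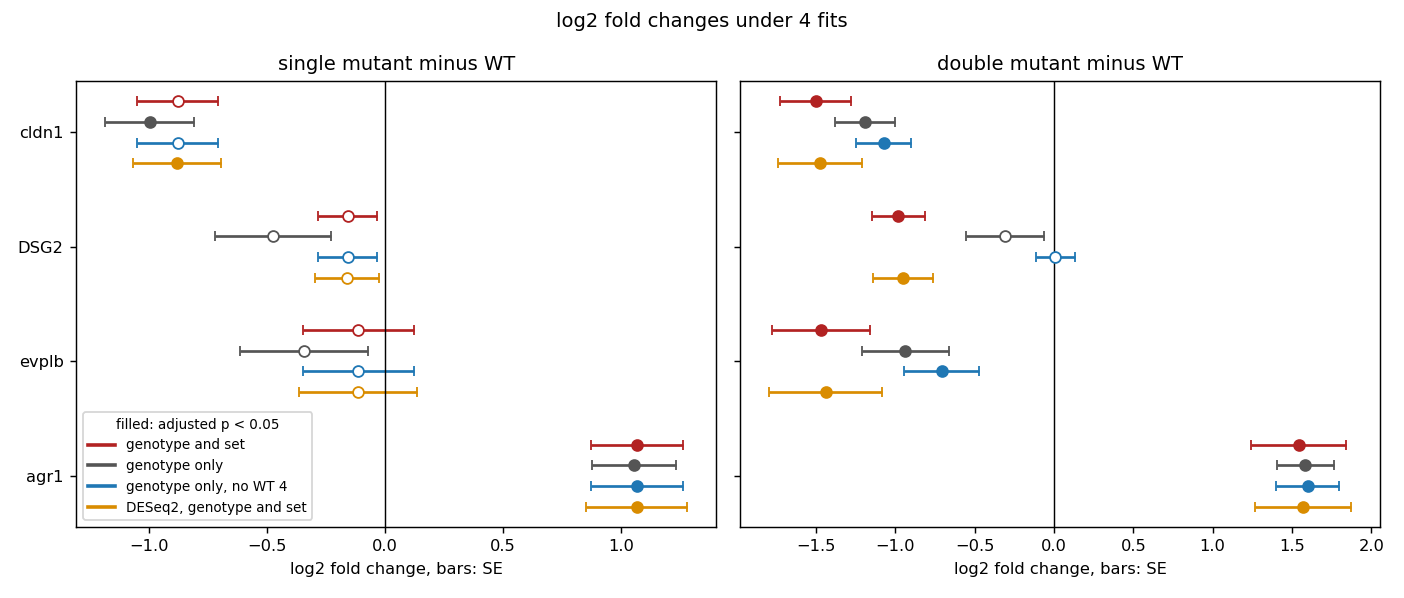
log2 fold changes (x axis) of the 4 genes for single mutants minus WT and double mutants minus WT, with SE bars, in 4 models: genotype and set, genotype only, genotype only without WT 4, and DESeq2 with genotype and set. Filled points have an adjusted p under 0.05. In the double mutants *cldn1*, *evplb* and *agr1* are filled in all 4 models, while *DSG2* moves to 0.01 without WT 4.

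Genes with related roles were read from lists of tight junction, adherens junction, desmosome, plakin and cornified envelope, keratin, enveloping layer and secretory genes. The lists hold 54 genes, of which 53 passed the minimum mean count of 10. The symbols come mostly from the tables of genes that the study called on these same libraries, so the lists are no independent evidence of a direction. In the double mutants 13 of the 53 genes were called lower and 1, *agr1*, higher, against 2.02% and 0.285% of all genes tested. The median log2 fold change was -0.68 (46 genes below 0), against 0.01 for all genes tested. Without WT 4 the list median was -0.36 (36 genes below 0), against 0.02 for all genes. Single mutants had 1 gene called lower, the vinculin gene *vclb*, and 1 higher, again *agr1*, with a median of -0.26 against 0.02 for all genes. Of all genes, 0.6% were called lower and 0.0908% higher there. Of the 13 genes lower in the double mutants, 9 were also called lower with genotype alone in the model and again without WT 4: *vclb*, *anxa2a*, the keratin gene ENSORLG00000019817, *TGM1*, *evplb*, *ppl*, *pard6b*, *cldn1* and *pard6a*. Each of these models called 19 of the 53 genes lower, where 13.1% of all genes were called lower with genotype alone and 21.3% without WT 4. The 10 genes that they added to these 9 were *plekha7a*, *jupa*, *PKP4*, *tjap1*, *tjp2a*, *creb3l2*, *capn9*, *cyt1*, the keratin gene ENSORLG00000002603 and the desmoglein gene ENSORLG00000002978. The other 4 of the 13 were *DSG2*, *si:ch73-74h11.1*, ENSORLG00000018750 and ENSORLG00000025564. DESeq2 called all 13 lower and *perp*, *PKP1*, *grhl2b*, *capn9*, *cyt1*, *evpla* and *cgna* as well, and it called the keratin gene ENSORLG00000000227 higher besides *agr1*. In the single mutants DESeq2 added *cldn1*, *grhl2b* and *pard6b* to the genes called lower and *krt18b* to those called higher. Among the list genes 40 had their highest WT level in WT 4 and 9 their lowest, against 44.7% and 36.7% of all genes, and the median ratio of WT 4 to WT 1-3 was 1.43 over the lists and 1.04 over all genes.

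**Figure D3:**
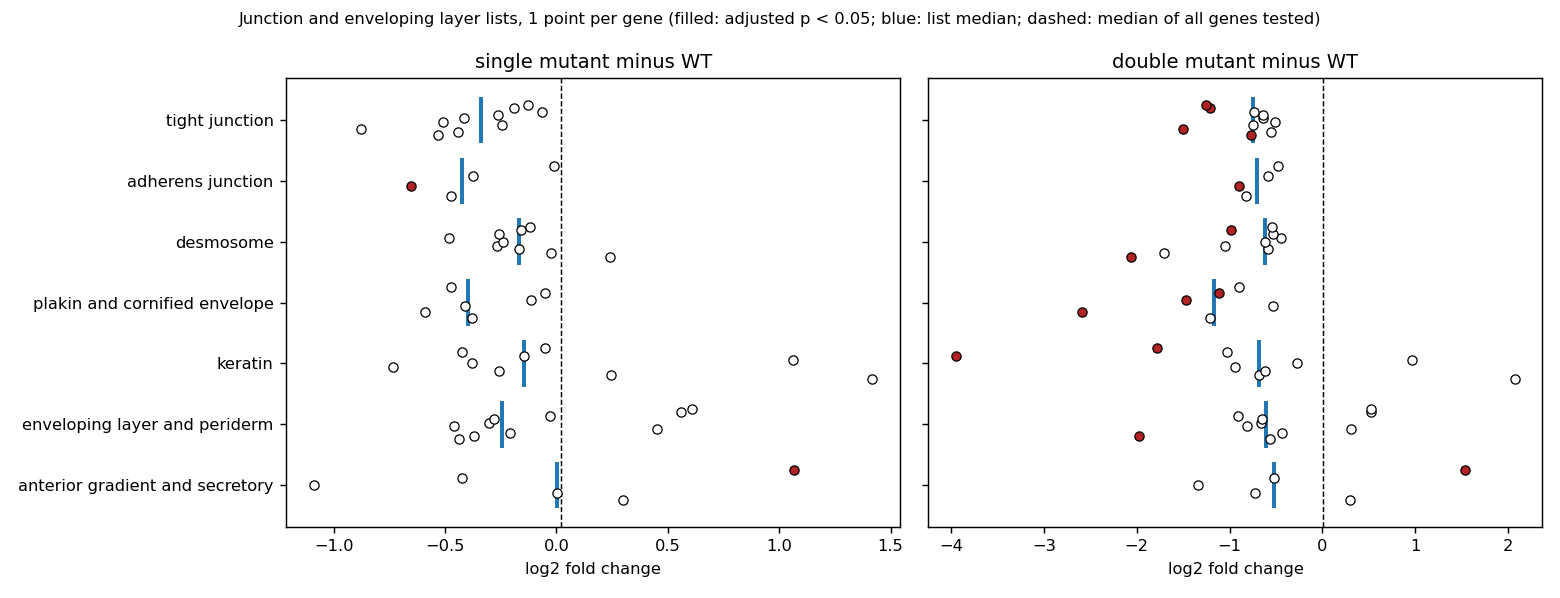
log2 fold changes (x axis) of list genes in single mutants minus WT and double mutants minus WT, with 1 point per gene and 1 row per list. Filled points have an adjusted p under 0.05, blue bars are list medians and dashed lines mark the median of all genes tested. In the double mutants set against WT 4, list medians run between -1.16 for the plakin and cornified envelope list and -0.52 for the anterior gradient and secretory list. Without WT 4 (not drawn) they run between -0.60 for the tight junction list and 0.07 for the enveloping layer and periderm list.

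The list medians in the double mutants depended on WT 4. Against WT 4 the median was -1.16 for plakin and cornified envelope genes, -0.74 for tight junction, -0.71 for adherens junction, -0.68 for keratin, -0.62 for desmosome, -0.60 for enveloping layer and -0.52 for secretory genes. Without WT 4 it was -0.41 for plakin and cornified envelope genes, -0.60 for tight junction, -0.48 for adherens junction, -0.44 for keratin, -0.36 for desmosome, 0.07 for enveloping layer and -0.03 for secretory genes. The order of the lists therefore changed with WT 4, and the enveloping layer median changed sign.

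Of the 6 plakin and cornified envelope genes 3 were called lower in the double mutants, against 2.02% of all genes tested. *TGM1*, the gene of the cross-linking enzyme transglutaminase 1, had 157, 454 and 366 normalized counts in the double mutants and 826, 688 and 748 in the single mutants, against 1126, 1138 and 1137 in WT 1-3 and 1959 in WT 4. Relative to the WT 1-3 mean, the double mutant libraries lay at -2.84, -1.32 and -1.63 in log2. WT 4 lay at 0.79 on that scale, and the fold change given next is against WT 4. Both mutants lay below all WT libraries, and the double mutant log2 fold change was -2.59 ± 0.38 (edgeR adjusted p = 0.0088). *ppl*, the gene of periplakin, the partner of envoplakin, had 17788, 22244 and 19737 in the double mutants, against 24895, 26125 and 28398 in WT 1-3 and 43155 in WT 4 (log2 fold change -1.12 ± 0.16, edgeR adjusted p = 0.0089; -0.41 without WT 4, adjusted p = 0.024). *ppl* had 27183, 25179 and 24366 in the single mutants and a log2 fold change there of -0.05 ± 0.12 (edgeR adjusted p = 0.89). The second envoplakin gene, *evpla*, was read more often than *evplb* and more variably: 22848, 34952 and 29097 normalized counts in the double mutants, against 36111, 34112 and 46089 in WT 1-3 and 66994 in WT 4. The double mutant libraries of *evpla* overlapped WT 1-3, and its log2 fold change of -1.21 ± 0.27 missed the threshold (edgeR adjusted p = 0.055; -0.42 without WT 4, adjusted p = 0.12). The plectin genes *pleca* and *plecb*, whose products tie keratin to several junctions, were not called: *pleca* had -0.53 ± 0.36 and *plecb* -0.90 ± 0.39, or -0.36 for each without WT 4.

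Of the tight junction and polarity genes, 4 of 10 were called lower in the double mutants, *cldn1* among them, against 2.02% of all genes. In the single mutants 0 were, against 0.6% of all genes, and *cldn1* and *pard6b* had the smallest adjusted p there. *pard6b* and *pard6a* code for Par6 proteins of the apical polarity complex. *pard6b* had 554, 661 and 657 normalized counts in the double mutants and 723, 793 and 802 in the single mutants, against 1194, 1054 and 1106 in WT 1-3 and 1068 in WT 4 (double mutant log2 fold change -0.77 ± 0.16, edgeR adjusted p = 0.036). *pard6a* had 458, 498 and 501 in the double mutants, against 938, 969 and 923 in WT 1-3 and 1128 in WT 4 (-1.21 ± 0.17, adjusted p = 0.0072). The WT libraries lay close together for both genes. The cingulin-like gene ENSORLG00000025564, of a family of tight junction plaque proteins, was called against WT 4 (-1.25 ± 0.20, edgeR adjusted p = 0.011) but not without WT 4 (-0.37, adjusted p = 0.069). The only other claudin gene with a name here, *cldn2*, was rare, with 59, 69 and 86 normalized counts in the double mutants, against 23, 52 and 38 in WT 1-3 and 119 in WT 4, and was not called (-0.74 ± 0.52, and 0.91 without WT 4, adjusted p = 0.091). *jam2b*, of the junctional adhesion molecules, was too rare to be tested.

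Among the 9 desmosome genes 2 were called lower in the double mutants, against 2.02% of all genes. Both were desmogleins whose calls rested on WT 4. A further 3 were called lower with genotype alone in the model and again without WT 4: *jupa*, *PKP4* and the desmoglein gene ENSORLG00000002978. Those models called 13.1% and 21.3% of all genes lower. *jupa*, the gene of plakoglobin, which binds desmosomal cadherins, had 5686, 5441 and 6872 normalized counts in the double mutants and 8900, 6917 and 7910 in the single mutants, against 9225, 9431 and 9388 in WT 1-3 and 9202 in WT 4. All mutant libraries of *jupa* lay below all WT libraries. Its double mutant log2 fold change was -0.62 ± 0.18 against WT 4 (edgeR adjusted p = 0.14) and -0.64 ± 0.13 without WT 4 (adjusted p = 0.0046). *PKP4*, a plakophilin gene, lay at 1178 to 1711 in the double mutants, against 2449 to 2578 in WT 1-3 and 1983 in WT 4, and had -0.45 ± 0.19 against WT 4 (edgeR adjusted p = 0.38) and -0.80 ± 0.14 without it (adjusted p = 0.0023). *si:ch73-74h11.1*, annotated as desmoglein-2, had 174, 313 and 321 normalized counts in the double mutants and 271, 662 and 307 in the single mutants, against 396, 360 and 296 in WT 1-3 and 1128 in WT 4. Its log2 fold change was -2.06 ± 0.45 against WT 4 (edgeR adjusted p = 0.049) and -0.38 without it (adjusted p = 0.40). The third desmoglein, ENSORLG00000002978, was low in the double mutants: it had 8.4, 19.3 and 18.8 normalized counts in the double mutants and 33.2, 81.9 and 39.4 in the single mutants, against 52.9, 55.2 and 50.8 in WT 1-3 and 51.2 in WT 4. It was not called (-1.71 ± 0.54, edgeR adjusted p = 0.20) but was with genotype alone in the model (-1.75, adjusted p = 0.019). For the plakophilin gene *PKP1*, of the desmosomal plaque, the log2 fold change was -1.05 ± 0.23 in the double mutants (edgeR adjusted p = 0.052) and -0.36 without WT 4 (adjusted p = 0.12), which stood at 1.62 times WT 1-3. The desmoplakin gene *dspa* had 9111, 12500 and 11810 normalized counts in the double mutants, overlapping WT 1-3 (11722, 9337 and 10978), against 16201 in WT 4.

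*vclb* codes for vinculin, which links cadherin and integrin adhesions to actin, and was the list gene called lower in both mutants. It had 1680, 1724 and 1657 normalized counts in the single mutants and 1202, 1213 and 1155 in the double mutants, against 2720, 2762 and 2462 in WT 1-3 and 2211 in WT 4. The libraries of the 3 genotypes did not overlap, and WT 4 lay below WT 1-3. The log2 fold change was -0.65 ± 0.09 in the single mutants (edgeR adjusted p = 0.017) and -0.89 ± 0.12 in the double mutants (adjusted p = 0.0075).

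Keratin genes went both ways. ENSORLG00000019817, a type I keratin, had 5835, 5672 and 6336 normalized counts in the double mutants and 18667, 18553 and 11700 in the single mutants, against 13256, 20260 and 17104 in WT 1-3 and 20478 in WT 4 (double mutant log2 fold change -1.78 ± 0.27, edgeR adjusted p = 0.0092). ENSORLG00000018750, a type II keratin, was called (-3.94 ± 0.53, adjusted p = 0.0067) from 12, 10.2 and 4.2 in the double mutants against 136 in WT 4, while WT 1-3 had 17.6, 15.1 and 14.5. Without WT 4 it was not called (-0.85, adjusted p = 0.17). The keratin 18 gene *krt18b* had 2842, 2632 and 1758 in the double mutants and 1898, 989 and 1208 in the single mutants, against 685, 580 and 694 in WT 1-3 and 1230 in WT 4. It was not called in the double mutants (0.97 ± 0.37, edgeR adjusted p = 0.32) but was with genotype alone in the model (1.60, adjusted p = 0.0098). Reads that fit near-identical keratin copies equally well may have been lost to the filter on mapping quality, so these values are uncertain.

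Of the 10 further enveloping layer and periderm genes only *anxa2a*, an annexin gene, was called in the double mutants in the model with the set. It had 602, 498 and 362 normalized counts there and 997, 823 and 927 in the single mutants, against 1105, 1203 and 1244 in WT 1-3 and 1920 in WT 4 (double mutant log2 fold change -1.98 ± 0.23, edgeR adjusted p = 0.0039; -1.28 without WT 4, adjusted p = 0.00096). WT 4 exceeded WT 1-3 for all 10 of these genes. With genotype alone in the model, 7 list genes were called higher in the double mutants, where 11% of all genes were (22.3% without WT 4): *agr1*, *pdia3*, *esrp1*, *lgals3b*, *krt18b*, the keratin gene ENSORLG00000000227 and the *spint1a* gene ENSORLG00000024696. Without WT 4 the cadherin-1-like gene ENSORLG00000020295 and the keratin gene *krt1-c5* were called higher too, which makes 9 higher beside the 19 lower. For *esrp1*, an epithelial splicing regulator, the double mutants had 5656, 5173 and 5109 normalized counts, against 2590, 2340 and 2664 in WT 1-3 and 4276 in WT 4. The model with the set gave 0.31 ± 0.18 for *esrp1* (edgeR adjusted p = 0.58) and called none of these but *agr1*. For ENSORLG00000020295 the sign changed: -0.48 ± 0.24 with the set and 1.29 without WT 4, which stood at 3.41 times WT 1-3.

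**Figure D4:**
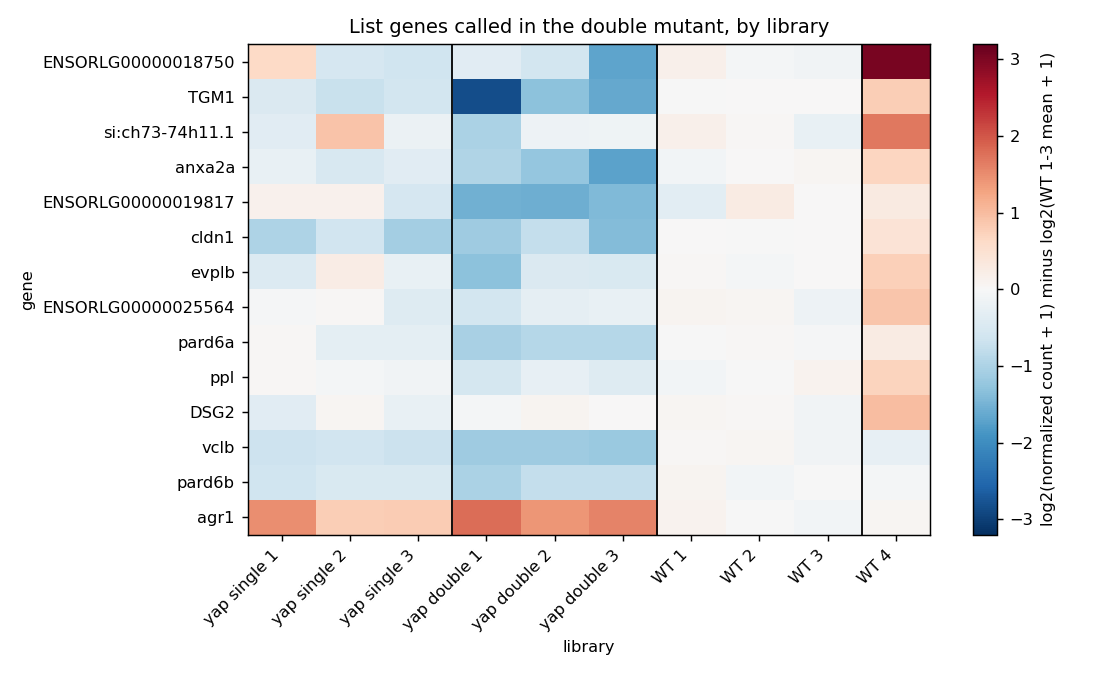
Level of each list gene called in the double mutants (rows), in each library (columns), as log2(normalized count + 1) minus the log2 of the WT 1-3 mean + 1 (blue lower, red higher). The columns run from single mutants and double mutants to WT 1-3 and WT 4. *cldn1*, *TGM1*, *anxa2a*, *vclb* and *pard6b* are blue in all 6 mutant libraries, *agr1* is red in all 6, and *DSG2* departs from WT 1-3 mainly in WT 4.

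*agr1* was the single anterior gradient gene with a name here. Of the other secretory genes in its list, *pdia3*, another disulfide isomerase, had a log2 fold change of 0.30 ± 0.21 in the double mutants (edgeR adjusted p = 0.66; 0.61 without WT 4, adjusted p = 0.0087), and *muc17*, a mucin gene, had -1.34 ± 0.57 (edgeR adjusted p = 0.39; -0.75 without WT 4, adjusted p = 0.18). The *muc17* counts were 1034, 2879 and 2458 in the double mutants, against 3536, 2912 and 4289 in WT 1-3 and 5392 in WT 4.

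Marker levels of some tissues differed between mutant and WT libraries, and their part in these results was not tested. The summed normalized counts of 5 epidermal markers (*dlx3b*, *gata2a*, *foxi1*, *tfap2a* and *tp63*) were 13397 to 14577 in the double mutants and 15025 to 16382 in the single mutants, against 21564 to 22635 in WT 1-3 and 24581 in WT 4. Mutant and WT libraries did not overlap for this sum, and 3 of the 5 genes were called lower in the double mutants and 2 in the single mutants. Of all genes tested, 2.02% were called lower in the double and 0.6% in the single mutants. For 7 enveloping layer markers (*krt18a.1*, *krt18b*, *cyt1*, *ppl*, *grhl2b*, *anxa1* and *anxa2a*) the sums were 41244 to 51173 in the double mutants and 47650 to 61784 in the single mutants, against 57828 to 60511 in WT 1-3 and 83679 in WT 4. Of these 7 genes 2, *ppl* and *anxa2a*, were called lower in the double mutants, and 0 in the single mutants by edgeR. *ppl*, whose counts are given above, made up much of this sum. All 7 are also list genes, so the sum is no reading apart from the lists. *krt18b* went the other way, with all double mutants above all WT libraries. Sums of 5 mesoderm markers (*tbxta*, *tbx16*, *wnt8a*, *aldh1a2* and *cdx4*) were 20104 to 30533 in the double mutants and 20092 to 26922 in the single mutants, against 16701 to 18080 in WT 1-3 and 19850 in WT 4. Mutant libraries thus lay above all WT libraries for the mesoderm sum too, narrowly so beside WT 4. No mesoderm marker was called in either mutant. The 2 neural markers (*sox3* and *otx2b*) summed to 8694 to 10511 in the double mutants and 7984 to 9402 in the single mutants, against 6795 to 7599 in WT 1-3 and 8004 in WT 4. For the neural sum the double mutants lay above all WT libraries and the single mutants overlapped WT 4, with neither marker called. The 3 endoderm markers (*sox17*, *sox32* and *foxa2*) summed to 5425 to 5942 in the double mutants and 6244 to 6601 in the single mutants, against 6235 to 6585 in WT 1-3 and 5228 in WT 4. No matched marker was at 0 in all libraries.

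On its chromosome *DSG2* lies between *dsc2l*, a desmocollin gene that ends 3640 bases before it, and *tubb2*, a tubulin gene that starts 2581 bases after it. *dsc2l* had 7261, 8891 and 7584 normalized counts in the double mutants and 6703, 7850 and 6797 in the single mutants, against 8985, 8512 and 8000 in WT 1-3 and 11404 in WT 4. Like *DSG2* it was highest in WT 4, but it was not called (-0.53 ± 0.16, edgeR adjusted p = 0.18; -0.10 without WT 4, adjusted p = 0.50). *tubb2* was rare in all libraries, with 9.1 to 27.8 normalized counts. The gene next to *agr1*, *adarb1b*, starts 13767 bases after it and was not higher in the mutants. It had 390, 478 and 598 normalized counts in the double mutants, against 700, 669 and 753 in WT 1-3 and 813 in WT 4 (-0.73 ± 0.26, edgeR adjusted p = 0.28). All double mutants lay below all WT libraries. *adarb1b* was called lower with genotype alone in the model (-0.59, edgeR adjusted p = 0.046) but not without WT 4 (-0.53, adjusted p = 0.051). The nearest matched gene before *evplb*, the myosin-10 gene ENSORLG00000015044, ends 15466 bases away with 2 RefSeq genes between them. It had 248, 319 and 327 in the double mutants, against 906, 935 and 856 in WT 1-3 and 428 in WT 4 (-0.52 ± 0.24, edgeR adjusted p = 0.43), with WT 4 low instead of high. Without WT 4 it was called lower (-1.59, adjusted p = 0.00045). For *cldn1* the nearest matched gene, *grk7*, starts 105806 bases away with 7 RefSeq genes between them, and it was not called (-0.17 ± 0.51, and -0.43 without WT 4, adjusted p = 0.35). Matched genes on the other side lay farther off, with many RefSeq genes between. They were ENSORLG00000004255 before *cldn1* (487172 bases), *myh9b* after *evplb* (1215230) and *fstl1b* before *agr1* (1208437). In the double mutants without WT 4 their log2 fold changes were -1.12, -1.26 and -0.53, all called lower, as were 21.3% of all genes. In the model with the set only *myh9b* was called lower (-0.97 ± 0.20), where 2.02% of all genes were.

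The profile of each gene over the 10 libraries was compared with those of 1628 other named genes of a mean count of at least 100, by the mean absolute difference of log2 CPM after centring each gene. These distances are descriptions: all genes share the same libraries, and the named genes are mostly genes the study called. Closest to *cldn1* were *RASSF5* (0.10), *hapln3* (0.11) and *fermt1* (0.12), against a median distance of 0.47. *fermt1*, the gene of kindlin-1, an integrin activator, had 1695, 1486 and 1555 normalized counts in the single mutants and 1548, 1847 and 1469 in the double mutants, against 3271, 3156 and 3054 in WT 1-3 and 4919 in WT 4. *hapln3*, the gene of a link protein that binds hyaluronan, was called lower in both mutants, at -0.92 ± 0.12 in the single (edgeR adjusted p = 0.00995) and -1.47 ± 0.15 in the double mutants (adjusted p = 0.0029). Closest to *DSG2* were *kaznb* (0.07), *p4ha1b* (0.09) and *MAPK8IP1* (0.10), with a median of 0.44. *kaznb* is a gene of kazrin, which in mammals binds periplakin, and it too departed in WT 4 alone: it had 1026, 1040 and 905 normalized counts in the double mutants and 753, 997 and 879 in the single mutants, against 915, 917 and 937 in WT 1-3 and 1872 in WT 4. Closest to *evplb* were *RASGRF1* (0.11), *fam214b* (0.15) and *cav1* (0.15), with a median of 0.42. *cav1*, the gene of the membrane coat protein caveolin-1, had 546, 649 and 734 in the double mutants and 731, 919 and 865 in the single mutants, against 893, 863 and 927 in WT 1-3 and 1541 in WT 4. Closest to *agr1* were *adss2* (0.20), *fabp7* (0.21) and *fth1b* (0.21), with a median of 0.85. *fabp7*, the gene of a fatty acid binding protein, had 13089, 10883 and 10694 in the double mutants and 9689, 6462 and 6477 in the single mutants, against 4361, 5269 and 4796 in WT 1-3 and 5731 in WT 4.

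Among the 4 genes themselves, *DSG2* and *evplb* had the closest profiles (0.31), followed by *cldn1* and *evplb* (0.34) and *cldn1* and *DSG2* (0.37). *agr1* was far from all of them, at 0.79 to 1.15. The 4 genes therefore did not form one profile: *cldn1* was low in all 6 mutant libraries, *evplb* in the double mutants and not in every single mutant library, *DSG2* differed in WT 4, and *agr1* was high in all 6 mutant libraries.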

How the data were processed

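The values are counts of reads per gene. Per the labels and the methods, the authors trimmed reads with Trimmomatic, removed ribosomal reads, mapped with HISAT2 to ASM223467v1, filtered by mapping quality with SAMtools and counted with HTSeq; the deposited counts are not normalized. Whether counting used strand is not given in the sources used here. Tested were the 16513 of 24365 genes whose count averaged 10 or more over the libraries, with edgeR 4.0.16 (R 4.3.3): TMM, quasi-likelihood test, genotype and technical set in the model, Benjamini-Hochberg over all genes tested, adjusted p under 0.05. The test was tried on simulated data. Alternatives were genotype alone, without WT 4, a replicate block, DESeq2 1.42.0, other size factors and filters, each set alone and each library left out. No paired design was used, since no label pairs the libraries. Names came from the tables of the study (2212 symbols) and coordinates from RefSeq (1747 genes matched). The genes and lists were chosen with earlier results of these data known. Named are the 4 genes, *yap1* and *yap1b*, list genes called in the edgeR models with the set, with genotype alone or without WT 4 or by DESeq2, paralogs, neighbours and the 3 nearest profiles per gene, with selected uncalled list genes added after their values were seen. Protein and promoter sequences were not analysed here.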

Additional observations from a re-analysis of the deposited data

Results flagged for a closer look

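Within the 4 WT libraries, WT 4 lay far from the others for 3 genes. The gap between WT 4 and the nearest WT library was 0.937 of the whole WT range for *cldn1*, 0.901 for *DSG2* and 0.905 for *evplb*, above Dixon's critical value for 4 libraries. For *agr1* the larger gap at an end of the WT range was 0.322, between WT 3 and WT 2. WT 4 lay inside the range of WT 1-3 there. Chance passes this limit in about 1 of 20 groups, while 16.5% of all 16513 genes tested passed it here. That share counts any WT library as the outlying one, so it does not measure how often WT 4 stood apart. WT 4 lay above WT 1-3, by any margin, for 44.7% of all genes tested. The double mutants are set against WT 4 in the model with the technical set, and values without WT 4 are given for the 4 genes and for the lists.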

How the results depend on the processing

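Of the double mutant results, *DSG2* changed sign without WT 4 (0.0096) and with the replicate block in place of the set (0.0076), and with genotype alone it was -0.31 and not called. With only WT 4 and the double mutants in the fit, none of the 4 genes was called, at -1.50 for *cldn1*, -0.98 for *DSG2*, -1.47 for *evplb* and 1.54 for *agr1*. That fit has fewer samples. *cldn1* was called in the single mutants with genotype alone (-0.998), the replicate block (-0.90), DESeq2 (-0.88) and WT 1-3 and single mutants only (-0.89), where *agr1* was not called (1.06). The double minus single mutant effect of *agr1* was called with the block only (0.55). Median-of-ratios size factors and other filters on low counts changed no call of the 4 genes. Some calls changed when a single library was left out. The ranges given for them cover all such fits, also those in which the call did not change. In the single mutants the fold changes ran between -1.03 and -0.79 (*cldn1*) and 0.78 and 1.19 (*agr1*). In the double mutants they ran between -1.01 and -0.95 (*DSG2*), -1.60 and -1.24 (*evplb*) and 1.44 and 1.64 (*agr1*).

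List genes called lower in the double mutants numbered 13, and 19 with genotype alone, 19 without WT 4, 20 with the block, 20 with DESeq2 and 3 with each set alone. Those called higher numbered 1, and 7 with genotype alone, 9 without WT 4, 9 with the block, 2 with DESeq2 and 0 with each set alone (0 to 1 without single libraries). List genes called lower in the single mutants numbered 1, and 2 with genotype alone, 2 with the block, 4 with DESeq2 and 2 with each set alone (0 to 2 without single libraries). Those called higher numbered 1, and 2 with DESeq2 and 0 with each set alone (0 to 1 without single libraries). Over all genes, 334 were lower and 47 higher in the double mutants, against 2163 and 1819 with genotype alone, 3510 and 3672 without WT 4, 3796 and 3699 with the block, 544 and 187 with DESeq2 and 78 and 12 with each set alone. Without single libraries they numbered 190 to 483 and 23 to 91. In the single mutants 99 were lower and 15 higher, against 316 and 125 with DESeq2, 86 and 6 with genotype alone and 8 higher with each set alone, and 23 to 149 and 2 to 23 without single libraries. The cause of these shifts was not tested. Replicate numbers were not taken to pair the libraries. Between same-numbered libraries, residuals across genes had r between -0.0619 and 0.49. Single mutant 1 was closest to double mutant 1 (0.49, against -0.142 and -0.414 for double mutants 2 and 3). Single mutant 2 was closer to double mutant 3 (0.355) than to double mutant 2 (0.0189). Whether the numbers mark a pairing is thus not settled. Without WT 4 the model with the set gives no double mutant value.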
